A study of Mus musculus with 178 samples.

Results

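The 9 genes described here, Gzma, Gzmb, Gzmk, Gzmm, Prf1, Nkg7, Ctsw, Fasl and Ifng, encode the granule proteins, death ligand and cytokine with which killer lymphocytes act on target cells. They were chosen by name, as the rows with these symbols among 55450 rows of a count table, and all 9 were found. The counts came from bulk RNA-seq of whole blood of C57BL/6J mice, several weeks old at the start, with orthotopic tumors grown from a single oral squamous carcinoma line, 4MOSC1, placed in the tongue or buccal mucosa. Blood was taken on Day 4 before treatment and on Days 9, 17 and 24 under treatment with an antibody against PD-1 (clone RMP1-14, given into the peritoneum). Every library came from a mouse assigned to this antibody (antiPD1), so that no untreated tumor-bearing group and no tumor-free group stood beside them, and time after implantation and treatment cannot be told apart. Responders were 15 mice, with 15 libraries on Days 4, 9 and 24 and 14 on Day 17. Non-responders were 30 mice, with 29 libraries on Day 4 and 30 on each later day.

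Cytotoxic lymphocytes, chiefly natural killer (NK) cells and CD8 T cells, store perforin and granzymes in secretory granules and release them onto a bound target. Perforin opens the target's membrane, granzymes enter and cut proteins inside it, and Fas ligand on the lymphocyte surface triggers death through the receptor Fas. Interferon gamma is secreted by the same cells and acts on many cell types, and blockade of PD-1 is used because this receptor restrains T cells of this kind. In RNA of whole blood, fewer cells of a type and less RNA per cell cannot be told apart.

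Estimated counts per library ranged from 26058958 to 82208665 in the 178 libraries, and haemoglobin genes took 68.7% to 88% of them. The Day 24 library of non-responder 29 stood apart, with a TMM scaling factor of 0.0848 where no other library fell below 0.266, and leaving it out ended 1 call of a member, that of Gzmk in the difference of changes by Day 24. Non-responders again had 6, 5 and 2 members called between Day 24 and Days 4, 9 and 17 without it. The Day 17 library of non-responder 24 was labelled a responder, whereas the other libraries of the mouse were labelled non-responder, and it was counted with the non-responders. Counted as a responder, it ended the call of Gzma in non-responders from Day 9 to Day 17 (-0.23, adjusted p = 0.0501) and added that of Prf1 in responders from Day 17 to Day 24 (-0.27, adjusted p = 0.0483). Ear tags of 4 digits were carried by 11 responders and 7 non-responders, and tags of 3 digits by 4 responders and 23 non-responders. What the tag series stands for is not given in the labels, so values within each series are set beside the pooled ones. Levels are given as log2 CPM, counts scaled to library size with the TMM method on a log2 scale, or as TPM, which is also corrected for gene length.

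The stretches just upstream of 4 members are shown. They were picked because, from Day 9 to Day 24, Gzma, Prf1 and Gzmb fell in both groups. Over the same days Gzmk rose in non-responders and was not called in responders. Cytotoxic genes are known targets of the RUNX factor Runx3 and of the T-box factors T-bet (Tbx21) and Eomes, and short letter strings that such factors favour were searched on both strands. The strings were TGTGGT (or ACCACA on the other strand), a RUNX core, and GTGTGA (or TCACAC), a T-box element, and they were chosen with the sequences in view. Each window is 150 bases, from 155 to 6 bases before the RefSeq transcript start in GRCm38.p6, printed 5′ to 3′ on the strand of the gene with the matches in capitals:
Gzma, chr13:113100987-113101136, minus strand: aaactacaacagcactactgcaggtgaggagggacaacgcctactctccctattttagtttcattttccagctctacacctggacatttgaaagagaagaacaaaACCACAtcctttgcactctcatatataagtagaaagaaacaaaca
Prf1, chr10:61297681-61297830, plus strand: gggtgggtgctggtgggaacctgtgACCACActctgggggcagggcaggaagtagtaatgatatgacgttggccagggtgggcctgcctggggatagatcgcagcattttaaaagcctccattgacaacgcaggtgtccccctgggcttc
Gzmb, chr14:56262340-56262489, minus strand: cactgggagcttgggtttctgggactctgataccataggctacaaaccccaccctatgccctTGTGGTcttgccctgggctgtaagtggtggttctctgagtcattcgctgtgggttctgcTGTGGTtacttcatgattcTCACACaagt
Gzmk, chr13:113180971-113181120, minus strand: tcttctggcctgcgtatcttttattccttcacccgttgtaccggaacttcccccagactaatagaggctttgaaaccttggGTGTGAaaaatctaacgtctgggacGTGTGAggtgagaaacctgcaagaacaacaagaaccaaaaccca

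The Gzma window held a single RUNX string, 50 to 45 bases before the start, and the Prf1 window a single one, 130 to 125 bases before it. In Gzmb the RUNX string stood at 93 to 88 and at 34 to 29 bases, with a T-box string at 15 to 10 bases before the start. Gzmk held the T-box string at 74 to 69 and at 49 to 44 bases and no RUNX string. Of 8 members with a promoter entry, 4 held the RUNX string (Gzma, Gzmb, Prf1 and Nkg7), and 8.46% of 32851 promoter windows of the same length hold it. The T-box string was in 3 of them (Gzmb, Gzmk and Nkg7) and is in 7.5% of all windows. Since the strings were chosen with these sequences in view, nothing about the members is read from these shares. Neither string was in the windows of Gzmm, Fasl and Ifng, which says only that these letters are not there, and no matches overlapped each other. The Gzmk window lies inside the longer gene model of the GENCODE M21 annotation (chr13:113171608-113225908). The Nkg7 window holds another annotated start, and its T-box string, 12 to 7 bases before the RefSeq start, lies inside the GENCODE gene model (chr7:43437073-43438249).

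Gzma was the most abundant member in blood by median TPM. Over all 178 libraries its level ranged from 0.21 to 37.7 TPM with a median of 10.4, whereas Nkg7 had a median of 5.99, Ctsw 2.41, Prf1 1.33 and Gzmb 1.18 TPM. Fasl stood at a median of 0.21 TPM, and Gzmm, Gzmk and Ifng at 0.09, 0.07 and 0.065 TPM. The ranges of neighbours in this order overlapped, and the last 3 lay so close that their order is not resolved. In estimated counts, the median library held 778 for Gzma but 10 for Gzmm, 6 for Gzmk and 7 for Ifng. For Gzmk, 8 libraries were at 0 counts and 50 at 3 counts or fewer, so single values of this gene rest on few reads. The 6 other granzyme genes listed (Gzmc, Gzmd, Gzme, Gzmf, Gzmg and Gzmn) were nearly absent, with median TPM values of 0 or 0.01, and none had enough counts for a test.

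**Figure D1:**
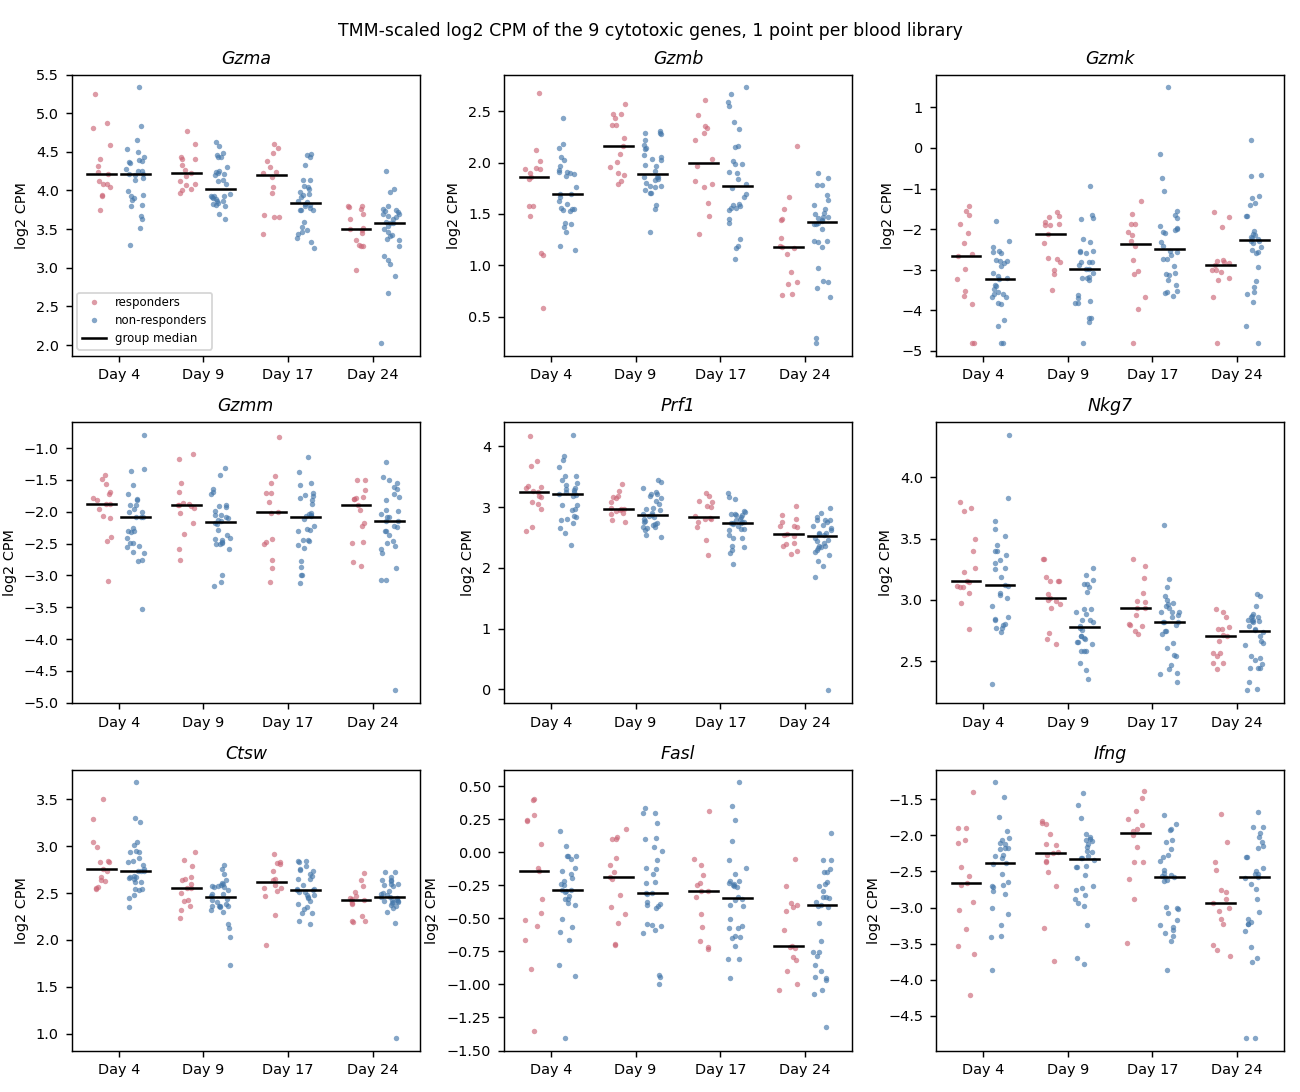
TMM-scaled log2 CPM of each gene (y axis) by day (x axis), 1 point per blood library, with responders beside non-responders and a bar at each group's median. Gzma, Prf1 and Gzmb are lowest on Day 24 in both groups, while the groups overlap on every day.

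Gzma, Gzmb and Prf1 fell from Day 9 to Day 24 in responders and in non-responders, and so did Fasl. The calls of Fasl were lost in both groups with the filter on low counts off. In responders, 5 of 9 members were lower on Day 24 than on Day 9 (Gzma, Gzmb, Prf1, Nkg7 and Fasl) and none was higher, against 19.0% of all genes called in either direction and 10.9% called lower. In non-responders, 4 were lower (Gzma, Gzmb, Prf1 and Fasl) and Gzmk was higher, against 41.8% of all genes called and 20.6% called lower. The median log2 change of the 9 members was -0.44 in responders and -0.26 in non-responders, beside -0.0022 and 0.03 for all genes tested. The share of members called lower in responders thus stood above that of all genes, and in non-responders it stood closer to it. In the Wilcoxon test on TPM, 0 of 9 members were called in responders over these days or from Day 4 to Day 24, and with DESeq2 5 and 6 were. The TPM values of these genes were still lower by Day 24, with changes from Day 9 of -0.58 for Gzma, -0.75 for Gzmb, -0.29 for Prf1, -0.21 for Nkg7 and -0.27 for Fasl on the log2 scale, beside a median of 0.12 for all genes. The mean TPM of Gzma in responders was 10.3 ± 3.59 on Day 9 and 6.91 ± 2.57 on Day 24 (SD, n = 15).

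Against Day 4, before treatment, the fall by Day 24 took in Ctsw as well. In responders, 6 of 9 members were lower (Gzma, Prf1, Nkg7, Gzmb, Fasl and Ctsw), against 17.4% of all genes called and 9.94% called lower. In non-responders, 5 were lower (Prf1, Gzma, Nkg7, Gzmb and Ctsw) and Gzmk was higher, against 48.7% called and 24.8% called lower. The members' median log2 change was -0.47 in responders and -0.34 in non-responders, beside -0.01 and 0.01 for all genes. Over these days 5 of 6 red cell markers were higher in non-responders (median 1.01). Without the library that stood apart, 4 were higher (0.41). In responders 0 of 6 were called (-0.23). Platelet markers were lower in 2 of 4 for responders (-0.67) and 4 of 4 for non-responders (-0.57). The part of red cells and platelets in these falls was not tested.

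By Day 9, Nkg7 and Ctsw were lower and Gzmb higher than on Day 4 in responders (27.7% of all genes called), and Nkg7, Ctsw and Prf1 were lower in non-responders (50.8% called). By Day 17, Nkg7, Ctsw and Prf1 were lower than on Day 4 in responders (25.6% called), and in non-responders these 3 and Gzma were lower and Gzmk higher (46.1% called). Between Days 9 and 17, responders had 0 of 9 members called by edgeR, 0 by DESeq2 and 0 at an unadjusted p under 0.05 (5.53% of all genes called), whereas in non-responders Gzma and Prf1 fell and Gzmk rose (26.5% called). Between Days 17 and 24, Gzma, Gzmb, Nkg7 and Ifng fell in responders (18.9% called) and Gzma and Gzmb in non-responders (21.2% called). In non-responders the share of members called by Day 9 lay below the share of all genes called.

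A fold change of at least 1.5 was required as well in a stricter count. In responders it left Gzma, Prf1 and Nkg7 from Day 4 to Day 24 (3.15% of all genes called), Gzma and Gzmb from Day 9 to Day 24 (5.54%), and Gzma, Gzmb and Ifng from Day 17 to Day 24 (3.93%). In non-responders it left Gzmk, Prf1 and Gzma from Day 4 to Day 24 (6.03%), Gzmk and Gzmb from Day 9 to Day 24 (8.54%), and Gzmk alone from Day 4 to Day 17 (4.96%) and from Day 9 to Day 17 (4.27%). It left 0 of the members that edgeR had called from Day 4 to Days 9 and 17 in responders (7.06% and 4.5% of all genes), from Day 4 to Day 9 and from Day 17 to Day 24 in non-responders (9.89% and 3.15%), and between responders and non-responders on Day 9 (3.65%).

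**Figure D2:**
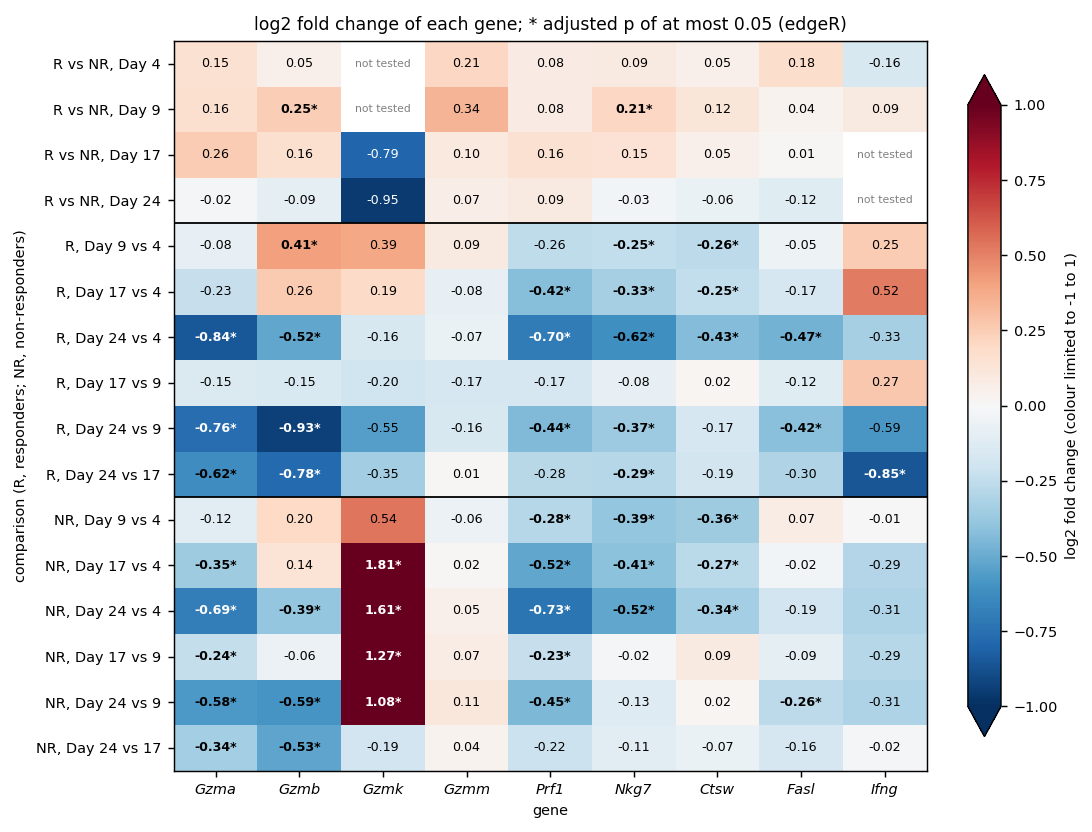
Log2 fold change of each gene (columns) in each comparison (rows; R, responders, NR, non-responders, later against earlier day), coloured from -1 to 1, with an asterisk where the adjusted p in edgeR was at most 0.05. The row of responders on Day 24 against Day 4 has 6 asterisks, all for lower values, and the rows of responders against non-responders have 2 in all, both on Day 9.

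Gzma encodes granzyme A, a tryptase that is abundant in resting NK cells (chr13:113093825-113100981, GRCm38, minus strand). In responders its log2 CPM ranged from 3.74 to 5.25 on Day 4 (median 4.22), from 3.96 to 4.76 on Day 9 (median 4.22), from 3.43 to 4.61 on Day 17 (median 4.20) and from 2.97 to 3.80 on Day 24 (median 3.50). In non-responders the ranges were 3.29 to 5.33 on Day 4 (median 4.21), 3.63 to 4.63 on Day 9 (median 4.02), 3.25 to 4.48 on Day 17 (median 3.84) and 2.03 to 4.25 on Day 24 (median 3.58). Every responder library of Day 24 lay below every responder library of Day 9, whereas the ranges of the non-responders overlapped between these days. Gzma was lower on Day 24 than on Day 9 in 15 of 15 responders and in 30 of 30 non-responders, by 41.1% in responders (log2 fold change -0.76, SE 0.12, adjusted p = 1.73e-06) and by 33.0% in non-responders (-0.58, SE 0.092, adjusted p = 9.20e-08). Within the tag series, the log2 change was -0.70 and -0.93 in responders with 4-digit and 3-digit tags (adjusted p = 6.75e-05 and 0.0795), and -0.65 and -0.57 in non-responders (adjusted p = 0.0208 and 7.82e-07). With the library of non-responder 29 left out, where Gzma was the lowest of 30, the change in non-responders was -0.56 (adjusted p = 1.22e-07).

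From Day 4 to Day 17 Gzma fell by 0.35 on the log2 scale in all non-responders (SE 0.092, adjusted p = 8.73e-04). The change was -0.49 in those with 3-digit tags (adjusted p = 1.27e-05) and 0.14 in the 7 mice with 4-digit tags (adjusted p = 0.657), and the difference between the tag series was not tested. In responders the change over these days was -0.23 (SE 0.12, adjusted p = 0.155). Against Day 4, the change by Day 24 was -0.84 in responders (SE 0.12, adjusted p = 2.89e-06) and -0.69 in non-responders (SE 0.093, adjusted p = 1.33e-09), and Gzma was lower in 15 of 15 and 28 of 29 mice. It was -0.52 in non-responders with 4-digit tags (adjusted p = 0.0977).

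Gzmb encodes granzyme B, which activates caspases in the target and is made on activation (chr14:56258838-56262260, minus strand), and its median was highest on Day 9 in both groups. In responders its log2 CPM ranged from 0.59 to 2.68 on Day 4 (median 1.86), from 1.79 to 2.57 on Day 9 (median 2.16), from 1.30 to 2.61 on Day 17 (median 2.00) and from 0.71 to 2.16 on Day 24 (median 1.17). In non-responders it ranged from 1.15 to 2.43 on Day 4 (median 1.69), from 1.33 to 2.31 on Day 9 (median 1.89), from 1.06 to 2.73 on Day 17 (median 1.77) and from 0.24 to 1.90 on Day 24 (median 1.42). Day 24 held the lowest median in both groups, and the ranges of all days overlapped. Between Days 9 and 17 no change was called (log2 fold change -0.15 in responders and -0.06 in non-responders, adjusted p = 0.574 and 0.683).

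The rise of Gzmb from Day 4 to Day 9 was 1.33-fold in responders (log2 fold change 0.41, SE 0.14, adjusted p = 0.0220), with higher values in 13 of 15 mice. In non-responders the change was 0.20 (SE 0.091, adjusted p = 0.0587), with higher values in 23 of 29 mice, and it passed the test with the mouse as a block (0.23, adjusted p = 0.0151). In both groups the mice with 4-digit tags had the larger change, 0.49 in responders (adjusted p = 0.0107) and 0.50 in non-responders (adjusted p = 0.0421), against 0.16 and 0.11 with 3-digit tags (adjusted p = 0.783 and 0.388). Gzmb then fell from Day 9 to Day 24 by 47.5% in responders (-0.93, SE 0.14, adjusted p = 1.45e-06) and by 33.4% in non-responders (-0.59, SE 0.092, adjusted p = 6.78e-08). This fall was seen in 15 of 15 responders and 29 of 30 non-responders, and was -0.88 and -1.07 in responders and -0.82 and -0.52 in non-responders with 4-digit and 3-digit tags, all called but that of the 4 responders with 3-digit tags (adjusted p = 0.143).

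Prf1 encodes perforin, the pore-forming protein without which granzymes do not reach the target's interior (chr10:61297833-61304680, plus strand), and its median was lower on each later day in both groups. In responders its log2 CPM ranged from 2.60 to 4.18 on Day 4 (median 3.25), from 2.76 to 3.38 on Day 9 (median 2.97), from 2.21 to 3.23 on Day 17 (median 2.84) and from 2.23 to 3.02 on Day 24 (median 2.56). In non-responders it ranged from 2.37 to 4.19 (median 3.22), from 2.50 to 3.45 (median 2.88), from 2.07 to 3.24 (median 2.74) and from -0.02 to 2.98 (median 2.52) on the same days. The value of -0.02 came from the library of non-responder 29 that stood apart, with 4 counts of Prf1. The ranges of neighbouring days overlapped. In responders no single step between successive days passed the test, with adjusted p = 0.0510 from Day 4 to Day 9, 0.361 from Day 9 to Day 17 and 0.0505 from Day 17 to Day 24.

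By Day 24 Prf1 had fallen from Day 4 by 38.5% in responders (log2 fold change -0.70, SE 0.10, adjusted p = 8.66e-06) and by 39.8% in non-responders (-0.73, SE 0.084, adjusted p = 7.96e-12). It was lower in 15 of 15 responders and 29 of 29 non-responders, and without the library of non-responder 29 the change was -0.71 (adjusted p = 4.73e-12). Within the tag series it was -0.54 and -1.17 in responders with 4-digit and 3-digit tags (adjusted p = 6.00e-05 and 0.130), and -0.52 and -0.79 in non-responders (adjusted p = 0.118 and 1.94e-12). The change from Day 17 to Day 24 was -0.28 in responders and -0.22 in non-responders (adjusted p = 0.0505 and 0.0544), and it passed the test in both groups with the mouse as a block (adjusted p = 0.0331 and 0.0232). In non-responders with 4-digit tags, Prf1 had changed by only 0.03 from Day 4 to Day 17 (adjusted p = 0.936), against -0.52 in all non-responders (SE 0.084, adjusted p = 1.62e-07).

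Nkg7 encodes a granule membrane protein that helps degranulation (chr7:43437073-43438249, plus strand). In responders its log2 CPM had medians of 3.16, 3.01, 2.93 and 2.70 on Days 4, 9, 17 and 24, within ranges of 2.76 to 3.80, 2.64 to 3.33, 2.72 to 3.34 and 2.44 to 2.93. In non-responders the medians were 3.12, 2.78, 2.82 and 2.74, within ranges of 2.31 to 4.35, 2.35 to 3.26, 2.33 to 3.61 and 2.26 to 3.05. The non-responder median on Day 9 was near that of Day 24, and the responder medians on Days 9 and 17 lay between those of Days 4 and 24, with ranges that overlapped throughout. From Day 4 to Day 9 Nkg7 fell by 0.39 on the log2 scale in non-responders (SE 0.077, adjusted p = 7.10e-06) and by 0.25 in responders (SE 0.081, adjusted p = 0.0163). The difference between these changes was 0.13 (SE 0.12, adjusted p = 1.00), so that they were not shown to differ. Within the tag series, the change by Day 9 was -0.11 and -0.46 in non-responders with 4-digit and 3-digit tags (adjusted p = 0.663 and 3.61e-07), and -0.15 and -0.54 in responders (adjusted p = 0.288 and 0.0385). From Day 9 to Day 24 the change was -0.37 in responders (SE 0.081, adjusted p = 6.23e-04) and -0.13 in non-responders (SE 0.077, adjusted p = 0.163), and the difference between these changes was not tested.

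Ctsw encodes cathepsin W, a cysteine protease of NK and CD8 T cells whose substrate in killing is not settled (chr19:5465043-5468507, minus strand, with 9 bases shared with Fibp on the other strand). In responders its median log2 CPM was 2.76, 2.55, 2.62 and 2.43 on Days 4, 9, 17 and 24, and in non-responders 2.74, 2.45, 2.53 and 2.46. On Day 4 the libraries ranged from 2.54 to 3.51 in responders and from 2.35 to 3.68 in non-responders, and on Day 9 from 2.24 to 2.94 and from 1.74 to 2.80, so that the days overlapped. The fall by Day 9 was 0.26 in responders (SE 0.082, adjusted p = 0.0115) and 0.36 in non-responders (SE 0.058, adjusted p = 7.37e-08), in 11 of 15 and 26 of 29 mice. No further change of Ctsw was called from Day 9 to Day 24, with -0.17 in responders (SE 0.082, adjusted p = 0.153) and 0.02 in non-responders (SE 0.058, adjusted p = 0.826). In the library of non-responder 29 that stood apart it was at 0.95, the lowest value of all.

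Fasl encodes Fas ligand, the member that kills through a surface receptor and not through granules (chr1:161780689-161788495, minus strand). Its median log2 CPM was -0.14, -0.19, -0.29 and -0.71 in responders and -0.29, -0.31, -0.35 and -0.40 in non-responders on Days 4, 9, 17 and 24. No change was called up to Day 17, and the median of Day 24 was lowest in both groups. Fasl fell from Day 9 to Day 24 by 25.2% in responders (log2 fold change -0.42, SE 0.13, adjusted p = 0.0195) and by 16.4% in non-responders (-0.26, SE 0.092, adjusted p = 0.0175), in 13 of 15 and 20 of 30 mice. In non-responders with 4-digit tags this change was 0.00 (adjusted p = 0.994). With the filter on low counts off, the fall from Day 9 to Day 24 was not called in either group.

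Ifng, the gene of interferon gamma (chr10:118441046-118445892, plus strand), was measured near the limit of these libraries, with 33 libraries at 3 counts or fewer. Its median log2 CPM was -2.66, -2.24, -1.96 and -2.93 in responders and -2.38, -2.33, -2.58 and -2.58 in non-responders on Days 4, 9, 17 and 24. The responder median was highest on Day 17, with a range of -3.50 to -1.38, and fell by Day 24, with a range of -3.67 to -1.70. This fall was the only change of Ifng that passed the test in edgeR in any comparison between days (log2 fold change -0.85, SE 0.26, adjusted p = 0.0163), and it was seen in 12 of 14 responders. In the Wilcoxon test on TPM it was not called (-1.07, adjusted p = 0.436). In non-responders the change over the same days was -0.02 (SE 0.19, adjusted p = 0.965). The difference between the groups' changes was tested from Day 4 only, where that of Day 17 was 0.80 (SE 0.33, adjusted p = 0.380). Ifng shares 2722 bases on its own strand with the gene model Gm49751, so that reads of this pair could be split.

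Gzmm, the gene of granzyme M, a protease of NK cells (chr10:79689020-79695261, plus strand), did not pass the test in any comparison. Its median log2 CPM stayed between -2.01 and -1.88 in responders and between -2.16 and -2.09 in non-responders over the 4 days. Against Day 4, the change by Day 24 was -0.07 in responders (SE 0.20, adjusted p = 0.904) and 0.05 in non-responders (SE 0.14, adjusted p = 0.798). The 95% interval of that change reached from -0.46 to 0.32 in responders and from -0.23 to 0.33 in non-responders, so that changes within these bounds are not excluded.

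Gzmk encodes granzyme K, a tryptase of memory T cells more than of NK cells (chr13:113171608-113225908, minus strand, overlapping Esm1 on the other strand over 8440 bases), and in non-responders it was higher on Days 17 and 24 than on Day 4, where Gzma and Prf1 were lower. In non-responders its log2 CPM ranged from -4.81 to -1.81 on Day 4 (median -3.23), from -4.81 to -0.95 on Day 9 (median -2.98), from -3.65 to 1.5 on Day 17 (median -2.49) and from -4.81 to 0.21 on Day 24 (median -2.27). In responders it ranged from -4.81 to -1.43 on Day 4 (median -2.66), from -3.50 to -1.58 on Day 9 (median -2.12), from -4.81 to -1.30 on Day 17 (median -2.37) and from -4.81 to -1.58 on Day 24 (median -2.88). The value -4.81 marks libraries with 0 counts. The non-responder median was higher on each later day and the responder median was not, and the ranges overlapped on each day. The fitted change in non-responders from Day 17 to Day 24 was -0.19 (adjusted p = 0.691), with lower values in 15 of 30 mice.

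Gzmk in non-responders was 3.06-fold higher on Day 24 than on Day 4 (log2 fold change 1.61, SE 0.34, adjusted p = 4.67e-05) and 3.50-fold higher on Day 17 (1.81, SE 0.34, adjusted p = 4.41e-06). It was higher on Day 24 than on Day 4 in 24 of 29 non-responders, and in 8 of 15 responders, where the change was -0.16 (SE 0.36, adjusted p = 0.798). The difference between these changes, responders minus non-responders, was -1.78 (SE 0.56, adjusted p = 0.0484), the only member called among the differences of changes by Day 24 (3.76% of all genes called). This call sat at the threshold, since the adjusted p was 0.0811 with the apart library of non-responder 29 left out and 0.0848 with the filter on low counts off, with differences of -1.79 and -1.77. For Days 9 and 17, 0 of 9 members were called by edgeR and 0 by DESeq2 in the differences of changes, with 0 and 2 at an unadjusted p under 0.05 (0.0% and 0.351% of all genes called).

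A single mouse held the highest Gzmk values. Non-responder 27 had 7, 24, 114 and 71 counts of Gzmk on Days 4, 9, 17 and 24, whereas the next highest library held 55 counts on Day 17 and 38 on Day 24. Without its libraries, an alternative chosen after these values were seen, the change in non-responders was 1.35 by Day 17 (adjusted p = 5.54e-05) and 1.44 by Day 24 (adjusted p = 1.88e-05), and the difference from responders on Day 24 was -1.60 (adjusted p = 0.0387). The rise in non-responders was thus also called without this mouse, at a smaller size on Days 17 and 24. Over all non-responders, the median change per mouse in log2 CPM of Gzmk from Day 4 was 0.95 by Day 17 and 1.02 by Day 24. Among non-responders with 3-digit tags alone the change by Day 24 was 1.48 (adjusted p = 6.59e-05), whereas Gzmk had too few counts for the test in the 4-digit series. In the 7 non-responders with 4-digit tags its median log2 CPM was -3.49 on Day 4 and -3.28 on Day 24 (means -3.52 and -2.75). With 3-digit tags the medians were -3.22 and -2.21 (means -3.21 and -2.18), and the difference between the tag series was not tested.

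**Figure D3:**
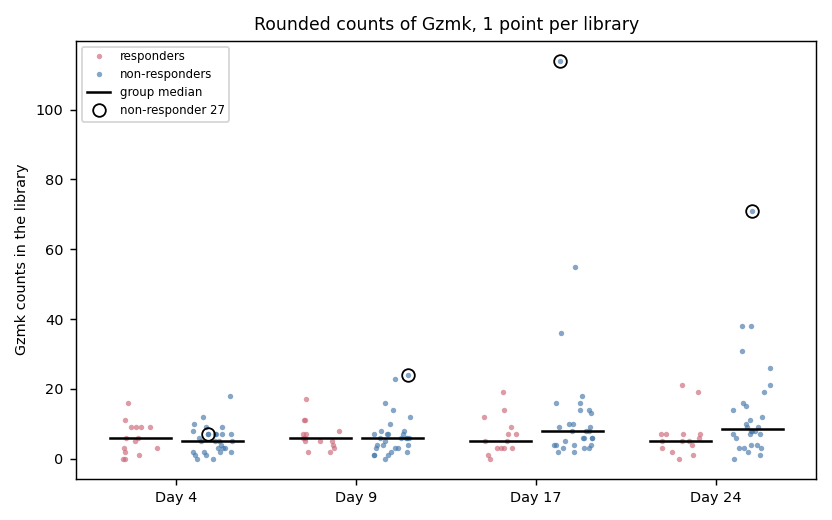
Rounded counts of Gzmk in each library (y axis) by day (x axis), responders beside non-responders, with a bar at each group's median and open circles around the libraries of non-responder 27. The circled points stand at 7, 24, 114 and 71 counts, and most libraries hold fewer than 20.

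Whether the blood of responders differed from that of non-responders in these genes was asked on each day. On Day 4, before treatment, 0 of 8 members tested were called by edgeR and 0 by DESeq2, with 0 at an unadjusted p under 0.05 (7.42% of all genes called; Gzmk had too few counts for the test). With the tag series as a covariate, Gzma alone was called on Day 4, higher in responders. On Day 9, 2 of 8 members were called, Gzmb and Nkg7, both higher in responders (13.4% of all genes called, 9.43% higher). Neither was called with the filter on low counts off (adjusted p = 0.0565 and 0.0972). The Wilcoxon test on TPM called 3 members on Day 4 and 5 on Day 9, Nkg7 among them on both days, all lower in responders on a scale where the median of all genes was -0.68. On Day 17, 0 of 8 were called by edgeR and 0 by DESeq2, with 1 at an unadjusted p under 0.05 (1.99% of all genes called), and on Day 24 again 0, 0 and 1 (8.55% called; Ifng was not tested on either day). The 2 members called on Day 9 are thus a share not far above that of all genes called on that day.

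On Day 9, Gzmb had a median log2 CPM of 2.16 in responders (1.79 to 2.57) and 1.89 in non-responders (1.33 to 2.31). Of 15 responders, 12 lay above the non-responder median and 6 above the highest non-responder. The difference was 1.19-fold (log2 fold change 0.25, SE 0.078, adjusted p = 0.0251). Nkg7 had a median of 3.01 in responders (2.64 to 3.33) and 2.78 in non-responders (2.35 to 3.26), with 12 of 15 responders above the non-responder median and 2 above the highest non-responder. That difference was 1.15-fold (0.21, SE 0.072, adjusted p = 0.0470).

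Neither call was kept with the tag series in the fit. With it as a covariate the differences were 0.17 for Gzmb (adjusted p = 0.324) and 0.23 for Nkg7 (adjusted p = 0.0904), for Nkg7 no smaller than without it. Within the series, Gzmb differed by 0.23 with 4-digit and 0.09 with 3-digit tags (adjusted p = 0.391 and 0.886), and Nkg7 by 0.36 and 0.07 (adjusted p = 0.270 and 0.898). On the TPM scale, the median of all genes was shifted by -0.68 between responders and non-responders, and the differences were -0.45 for Gzmb and -0.49 for Nkg7, both above that median. Beside them, all 6 red cell markers, among them the haemoglobin genes, were higher in responders on Day 9, by a median of 0.83 on the log2 scale, and haemoglobin took a median of 83.1% of counts in responders and 78.5% in non-responders. None of 10 NK cell markers was called between the groups on that day (median difference -0.02), nor any of 9 T cell markers (0.01). The part of the red cells in these differences was not tested.

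In the main edgeR fit, the other members gave no call between the groups on any day on which they were tested. Gzmk was not tested on Days 4 and 9. For Gzma the largest difference was on Day 17, 0.26 higher in responders (SE 0.11, adjusted p = 0.160), with 10 of 14 responders above the non-responder median. On Day 4 it was 0.15 (SE 0.13, adjusted p = 0.513), and 0.39 with the tag series as a covariate, which was called (adjusted p = 0.0482). Prf1 differed by between 0.08 and 0.16 on the 4 days, Ctsw by between -0.06 and 0.12 and Fasl by between -0.12 and 0.18, none of them called. Gzmk was 0.95 lower in responders on Day 24 (SE 0.38, adjusted p = 0.0994), with 3 of 15 responders above the non-responder median.

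NK cell markers fell with the granule genes. From Day 9 to Day 24, 8 of 10 NK markers were lower in responders (median log2 change -0.57) and 9 of 10 in non-responders (-0.64), and from Day 4 to Day 24, 9 and 10 of 10 (-0.62 and -0.61). Of all genes, 10.9% and 20.6% were called lower over the first interval and 9.94% and 24.8% over the second. Without the library that stood apart the non-responder counts were again 9 and 10, with medians of -0.64 and -0.61. Their summed level had a median of 6.63 TPM on Day 9 (2.86 to 10.6) and 4.98 on Day 24 (1.58 to 7.42) in responders, and of 10.3 (3.41 to 18.9) and 5.17 (0.34 to 12.2) in non-responders. No NK marker was at 0 throughout, and Klra4 and Klra9 were at 0 in 1 library each. Several of the markers belong to the Ly49 family (Klra4, Klra7, Klra8 and Klra9), whose near-identical members can share reads. The part of NK cells in the fall of Gzma, Gzmb and Prf1 was not tested.

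T cell markers took another course between these days, though they too were lower by Day 24 than on Day 4. From Day 4 to Day 24, 6 of 9 were lower in responders (median -0.24) and 7 of 9 in non-responders (-0.24), with 0 higher. Of the 2 CD8 markers, 1 and 2 were lower. Of all genes, 9.94% and 24.8% were called lower over that interval. From Day 4 to Day 9, when Nkg7 and Ctsw fell, 9 of 9 T cell markers were lower in responders (median -0.46) and in non-responders (-0.55), and so were both CD8 markers, Cd8a and Cd8b1, where 27.7% and 50.8% of all genes were called in either direction. From Day 9 to Day 24, when Gzma, Gzmb and Prf1 fell, 7 of 9 T cell markers were higher in responders (0.25) and 9 of 9 in non-responders (0.32), beside 19.0% and 41.8% of all genes called in either direction. From Day 4 to Day 9 only 1 NK marker was called in responders, as lower, and 2 in non-responders, 1 in each direction. Monocyte markers were higher on Day 9 than on Day 4 in 4 of 6 for responders and 6 of 6 for non-responders, and the part of shifts among blood cells in the early falls was not tested.

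Set against the NK markers of its own library, Gzma changed little in non-responders. The log2 CPM of Gzma minus the mean log2 CPM of the 10 NK markers, a ratio that depends on the scaling only through the prior count and was added after the values were seen, had medians of 2.82, 2.82, 2.78 and 2.75 in non-responders and 3.07, 2.98, 2.88 and 2.79 in responders on Days 4, 9, 17 and 24. For Gzmb the same difference was 0.43, 0.62, 0.84 and 0.61 in non-responders and 0.36, 0.85, 0.76 and 0.54 in responders. Gzmb thus stood higher beside the NK markers on Days 9 and 17 than on Day 4 in both groups, with ranges that overlapped. For Nkg7 it was 1.86, 1.47, 1.76 and 1.95 in non-responders and 1.97, 1.75, 1.72 and 1.95 in responders, lowest on Day 9 in non-responders. For Prf1 it was 1.90, 1.66, 1.66 and 1.76 in non-responders and 2.05, 1.79, 1.69 and 1.94 in responders, highest on Day 4 in both groups. Set against the mean of the 9 T cell markers instead, Gzma had medians of 0.42, 0.92, 0.40 and 0.02 in non-responders and 0.60, 1.01, 0.85 and 0.19 in responders, highest on Day 9 and lowest on Day 24 in both. These values are a description and were not tested.

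**Figure D4:**
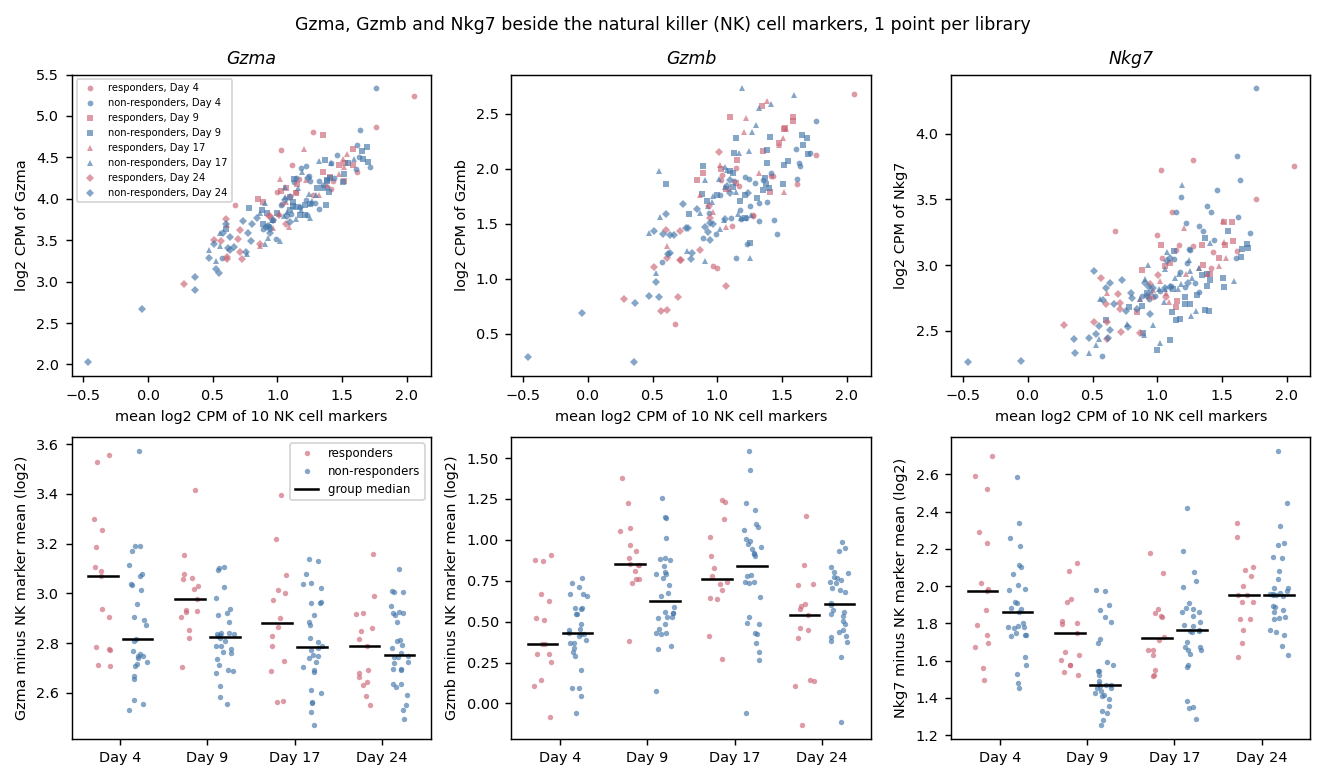
Upper row, log2 CPM of Gzma, Gzmb and Nkg7 (y axis) against the mean log2 CPM of 10 NK cell markers (x axis), 1 point per library, coloured by response and shaped by day. Lower row, the difference of the same values by day with group medians, where Gzma of non-responders stays between 2.75 and 2.82 and Gzmb rises from Day 4 to Day 9 in both groups.

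Of 14 genes that load, process and release granules, 13 could be tested, and from Day 9 to Day 24, 5 were lower in responders and 8 in non-responders, with none higher, beside 10.9% and 20.6% of all genes called lower. Ctsc, the cathepsin that activates granzymes, fell by 0.56 in responders (SE 0.079, adjusted p = 4.32e-07) and by 0.61 in non-responders (SE 0.048, adjusted p = 3.58e-20), after a rise from Day 4 to Day 9 of 0.37 and 0.48 (adjusted p = 2.64e-04 and 2.18e-15). Serpinb6b, a serpin inhibitor, fell by 0.60 and 0.50 from Day 9 to Day 24 (adjusted p = 5.88e-05 and 7.20e-07). Against Day 4, Serpinb9, the inhibitor that guards cells from granzyme B, fell by 0.49 in responders and 0.37 in non-responders by Day 24 (adjusted p = 1.38e-04 and 3.66e-05). The median change of the list from Day 9 to Day 24 was -0.15 and -0.19, beside -0.0022 and 0.03 for all genes. Neither Ctsc nor most of this list is restricted to lymphocytes, and over the same days 5 and 6 of 6 monocyte markers were lower in responders and non-responders (median -1.05 and -1.0) and 5 and 6 of 7 neutrophil markers (-0.68 and -0.50). Their part in the fall of these genes was not tested.

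Regulators of the cytotoxic programme were called in both directions early and almost only as lower late. From Day 4 to Day 9, 7 of 13 were higher and 2 lower in responders (median change 0.33, with 27.7% of all genes called), and 6 higher and 3 lower in non-responders (median 0.01, with 50.8% called). Over these days Prdm1 (the repressor Blimp-1) rose by 0.60 and 0.78 (adjusted p = 0.00175 and 3.58e-12). From Day 9 to Day 24, 7 of 13 were lower in responders and 8 in non-responders, where 1 was higher, beside 10.9% and 20.6% of all genes called lower. In responders Hopx and the interleukin 18 receptor chain Il18rap fell most, by 0.60 and 0.58 (adjusted p = 1.43e-05 and 7.63e-06), beside 0.38 and 0.34 in non-responders (adjusted p = 8.30e-06 and 2.64e-05). In non-responders Prdm1 and the interleukin 12 receptor chain Il12rb2 fell most, by 0.64 and 0.57 (adjusted p = 7.60e-09 and 2.69e-08), beside 0.41 and 0.42 in responders (adjusted p = 0.0440 and 0.0499). Tbx21, which encodes T-bet, was lower on Day 24 than on Day 4 by 0.47 in responders and 0.54 in non-responders (adjusted p = 0.00810 and 3.43e-07).

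Interferon gamma's receptor and target genes were 9 of 11 tested. From Day 4 to Day 9, 3 were higher in responders and 7 in non-responders, with none lower (27.7% and 50.8% of all genes called, in either direction), and Ifngr2 rose by 0.40 and 0.45 (adjusted p = 0.00109 and 2.25e-17). From Day 9 to Day 24, 6 were lower and 1 higher in responders, and 7 lower and 1 higher in non-responders (10.9% and 20.6% of all genes called lower), with the chemokine gene Cxcl10 down by 0.94 and 1.37 (adjusted p = 0.0123 and 4.92e-09). Ifng itself was called in neither group over these intervals. Among 9 genes of the death receptors, their other ligands and signalling, Tnf rose most from Day 4 to Day 9, by 1.20 in responders and 0.95 in non-responders (adjusted p = 8.55e-04 and 3.92e-07). Over that interval 1 gene of this list was higher and 2 lower in responders, and 3 higher and 2 lower in non-responders, shares near the 27.7% and 50.8% of all genes called, and from Day 9 to Day 24 1 and 4 were lower and none was higher. Between responders and non-responders on Day 9, Il18r1 was 0.26 higher (adjusted p = 0.0129) and Casp8 0.10 lower (adjusted p = 0.0345) in responders, the only genes of these lists called on that day.

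Pearson's r of log2 CPM was taken over 178 libraries after the mean of each day and response group had been subtracted, and is given as a description, since the 4 libraries of a mouse are not independent and libraries share depth and cell make-up. Gzma and Prf1 had r = 0.84, Gzma and Nkg7 0.81, Nkg7 and Prf1 0.74, and Gzma and Gzmb 0.72, and without the library that stood apart these were 0.84, 0.82, 0.81 and 0.70. Gzmb had r = 0.61 with Prf1 and 0.53 with Nkg7. Ctsw had 0.68 with Prf1, 0.59 with Gzma and 0.56 with Nkg7, and 0.24 with Gzmb. Fasl went with Gzmb (0.57) more than with Gzma (0.36) or Prf1 (0.32). The highest r with another member was 0.42 for Gzmk, 0.41 for Gzmm and 0.45 for Ifng, all at few counts. That of Gzmm was with Prf1, and was 0.26 without the library that stood apart. Its highest was then 0.32, with Nkg7. Ctsw then had 0.57 with Prf1 and 0.58 with Nkg7.

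The mean of the NK markers had r = 0.83 with Gzma, 0.72 with Prf1, 0.68 with Gzmb, 0.62 with Nkg7 and 0.56 with Ctsw, and 0.82, 0.69, 0.66, 0.62 and 0.50 without the library that stood apart. The mean of the CD8 markers had r = 0.51 with Ctsw, 0.49 with Nkg7, 0.39 with Prf1, 0.25 with Gzma and 0.00 with Gzmb. The mean of 5 B cell markers had 0.25, 0.15, 0.37, 0.28 and 0.08 with the same genes. For Prf1, Gzma and Gzmb these were near or above the CD8 values. Of all genes outside the 9, those most like Gzma were Klrb1c (0.83), Ccl5 (0.81) and Il2rb (0.78). Gzmb was most like Klrk1 (0.71), Tbx21 (0.69) and AW112010 (0.66), Prf1 like Arsb (0.79), Il2rb (0.78) and Tbx21 (0.76), and Nkg7 like Ccl5 (0.84), Il2rb (0.74) and Arsb (0.68).

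For the other members the best likeness was weaker. Ctsw was most like Zap70 (0.61), Klra4 (0.60) and Klra9 (0.60), Fasl like Tbx21 (0.52), Klrc1 (0.51) and Klre1 (0.51), and Gzmk like Ccl5 (0.50), Tigit (0.47) and Klrg1 (0.45). Ifng was most like Lrrk1 (0.45) and Klrk1 (0.42). For Gzmm the 3 genes were Gm17018 (0.45), Igkv1-135 (0.44) and Rnaset2a (0.43), and none of them remained among the 3 most like it without the library that stood apart. Without it, Klrb1c and Serpinb9 took the places of Klra4 and Klra9 for Ctsw, Ncr1 that of AW112010 for Gzmb, and Klrb1c that of Tbx21 for Prf1.

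**Figure D5:**
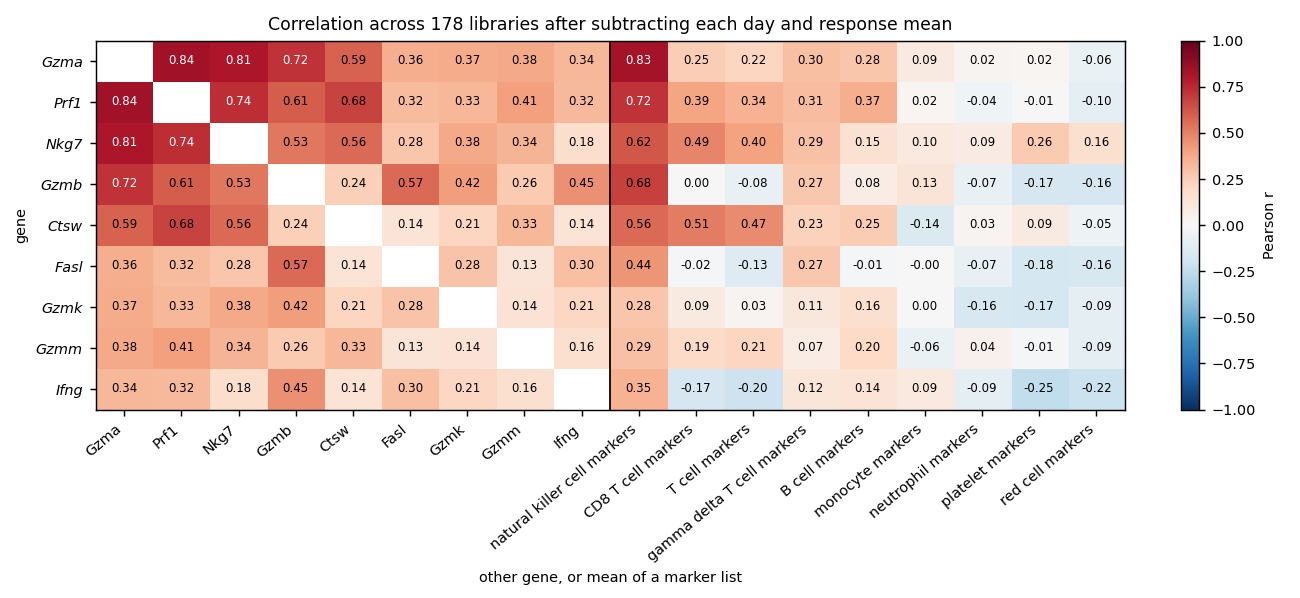
Pearson's r of log2 CPM across 178 libraries, after the mean of each day and response group was subtracted, for each gene (rows) with the other 8 and with the mean of each list of cell markers (columns right of the line). Gzma, Prf1 and Nkg7 have the highest values with each other, from 0.74 to 0.84, and the NK marker column reaches 0.83 for Gzma.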

How the data were processed

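RNA from whole blood, collected by retro-orbital puncture into TRIzol, was made into poly(A) libraries with a SMARTer mRNA-Seq kit, and the labels do not say whether strand was kept. The submitters' processing notes name STAR and the build mm10. The authors deposited an estimated count for each gene and library, of which 3.14% were not whole, and these were rounded. The authors also deposited TPM values, which are scaled to gene length and library total and were used for levels and for 1 alternative. Library totals ran from 26058958 to 82208665 counts, and non-haemoglobin counts from 4535330 to 22174668.

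The 9 members and all gene lists were chosen with earlier results of these data known. Named from each list were at most the 2 called genes with the largest change in a comparison, with the value of the same gene in the other group beside it, and the 3 genes most correlated with each member. Genes passing filterByExpr were tested in R 4.3.3 with edgeR 4.0.16 (TMM scaling, quasi-likelihood test, two-sided, Benjamini-Hochberg adjustment over all genes tested), and called at an adjusted p of at most 0.05. Comparisons were made between response groups day by day, between days within each group, and of the changes from Day 4 between groups in a fit of all libraries. SE was the log2 fold change over the square root of F, and log2 CPM used a prior count of 2. Between response groups on a single day each library is another mouse, so those p-values measure the spread between mice. The main fits between days and of the differences of changes held no term for the mouse. They took repeated libraries of a mouse as independent, and the mouse as a block was an alternative.

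The ear tag identifies the mouse, so libraries of a mouse are paired by the labels. Deviations from the group means had a median correlation of 0.0431 over 264 pairs of libraries from the same mouse, against -0.00108 over 6351 pairs from different mice. No 2 libraries were identical. Alternatives were the mouse as a block, the tag series as a covariate or alone, no filter, scaling without haemoglobin genes, a fold of 1.5, DESeq2 1.42.0, a Wilcoxon test on log2(TPM + 0.01), the disputed label, and libraries left out. Tested on simulated counts for responders on Day 24 against Day 4 (11956 genes), the test recovered 81% of genes changed 1.5-fold and 97% of those changed 2-fold. The simulated libraries covered only these days and were drawn as independent, with the changes placed in genes taken at random. Recovery in the fit of all days with repeated mice, or for members at few counts, was not measured.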

Additional observations from a re-analysis of the deposited data

Results flagged for a closer look

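The change of Gzmk from Day 4 to Day 24 differed between the response groups by a test of the difference itself, responders minus non-responders, at -1.78 on the log2 scale (SE 0.56, adjusted p = 0.0484 in edgeR). Over its alternatives the difference ranged from -2.09 with the tag series as a covariate to -1.60 without non-responder 27, with adjusted p between 0.0238 and 0.0848.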

How the results depend on the processing

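Of the changes of single members under all alternatives, 430 stayed on the same side of the threshold, 79 lost the call and 20 gained it. A further 15 were counted as changing sign, 9 of them on the TPM scale and 6 with 4-digit tags alone. This tally does not hold every change of sign of members without a call. With the mouse as a replicate block, 54 stayed on the same side of the threshold, and no called change turned its sign. The call was gained by 3, Gzmb from Day 4 to Day 9 in non-responders (adjusted p = 0.0151) and Prf1 from Day 17 to Day 24 in both groups (0.0331 and 0.0232). No other call changed.

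On the TPM scale, where the median of all genes between responders and non-responders was -0.68 on both days, the difference took a negative sign on Day 4 for Ctsw (-0.68), Nkg7 (-0.65) and Prf1 (-0.69), and on Day 9 for Ctsw (-0.65), Fasl (-0.54), Gzma (-0.59), Gzmb (-0.45), Nkg7 (-0.49) and Prf1 (-0.64), all near or above that median. Other members turned without being counted. Gzma and Gzmb on Day 4 were 0.15 and 0.05 higher in responders in edgeR, not called. Their mean TPM was lower in responders, 11.3 against 17.1 and 1.03 against 1.68. Gzmm on Day 9 was 0.34 higher in edgeR, not called, with a mean TPM of 0.09 against 0.12. In non-responders with 4-digit tags alone, changes reversed from Day 4 to Day 17 for Gzma (0.14), Nkg7 (0.13) and Prf1 (0.034), from Day 9 to Day 17 for Gzma (0.0031) and Prf1 (0.062), and from Day 9 to Day 24 for Fasl (0.0047).

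With the filter off, the 6 calls lost were Gzmb and Nkg7 between the groups on Day 9, Fasl from Day 9 to Day 24 in responders (adjusted p = 0.0547) and in non-responders (0.0613), Gzma from Day 9 to Day 17 in non-responders (0.0703) and the difference of changes of Gzmk by Day 24 (0.0848). DESeq2 added calls of Prf1 from Day 4 to Day 9 in responders (0.0419), Gzmb over these days in non-responders (0.04) and Prf1 from Day 17 to Day 24 in non-responders (0.0368). Scaling without haemoglobin genes added both Prf1 calls (0.0455 and 0.0496). With non-responder 29 left out on Day 24, changes in non-responders by Day 24 were -0.33 for Ctsw and -0.51 for Nkg7 from Day 4, and -0.58 for Gzmb and -0.26 for Fasl from Day 9, all still called.

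Counts of members called moved as follows. Responders against non-responders gave 1 on Day 4 with the tag series as a covariate and 3 in the Wilcoxon test on TPM, and on Day 9 gave 5 in that test and 0 with the covariate, with the filter off, with either tag series alone or with a fold of 1.5 required. The Wilcoxon test gave 0 in responders for every comparison of days with a call, and 0 in non-responders from Day 4 to Day 9 and from Day 17 to Day 24. With a fold of 1.5 required, responders had 0 from Day 4 to Days 9 and 17, 3 from Day 4 to Day 24 and 2 from Day 9 to Day 24. Non-responders then had 0 from Day 4 to Day 9, 1 to Day 17 and 3 to Day 24, 1 from Day 9 to Day 17, 2 from Day 9 to Day 24 and 0 from Day 17 to Day 24. With 4-digit tags alone, responders had 1 from Day 4 to Day 9 and 1 to Day 17, and non-responders had 1, 1 and 0 from Day 4 to Days 9, 17 and 24, and 0 and 2 from Day 9 to Days 17 and 24. With 3-digit tags alone, responders, 4 mice, had 1 from Day 4 to Day 9 and 0 in the other comparisons, and non-responders had 1 from Day 17 to Day 24. For the difference of changes by Day 24, 0 were called with the filter off or without the Day 24 library of non-responder 29.

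Leaving out non-responder 27 was chosen after seeing the data. Without it 42 changes, called or not, stayed on the same side of the threshold, and no called change turned its sign. A call was gained by Fasl from Day 4 to Day 24 in non-responders (-0.22, adjusted p = 0.0441). Tag series alone hold fewer mice, and otherwise the cause was not tested. Gzmk, Gzmm and Ifng are limited by their counts. Leaving out each mouse in turn was not run, since the groups hold 15 and 30 mice.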
